A study of Castanea mollissima with 6 samples.

Results

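A set of 140 genes was at least 16-fold higher in r_3m than in r_1m roots of Chinese chestnut, out of 20038 genes that averaged 1 FPKM or more over the 6 libraries (the genes tested) and 33991 genes listed. FPKM are fragment counts scaled to the length of the transcript and to the mapped fragments of the library. The genes were chosen by their measured group means: d, the difference of log2(mean FPKM + 1), r_3m minus r_1m, had to be at least 4. That limit took 0.699% of the genes tested. Because the choice used the contrast between the groups, the values of these genes in that contrast are a description and carry no test.

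RNA was sequenced from roots of Castanea mollissima, in 3 libraries titled r_3m and 3 titled r_1m. Total RNA was extracted with a plant kit and made into directional libraries, per the labels. The labels name no treatment, age or genotype, do not spell out what follows the r, and do not state if a group holds more than 1 plant. Titles of each group carry their own block of run numbers, so a batch and the group cannot be told apart. Relative depth, read from the steps of low FPKM values, was 64.0%, 84.4% and 89.0% in r_3m replicates 1, 2 and 3, and 100%, 94.7% and 88.0% in r_1m replicates 1, 2 and 3, against the deepest library. Absolute depth is unknown.

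Chinese chestnut is a nut tree of the beech family. A root is a mixed organ: tip, epidermis, cortex, vascular tissue and, in older parts of trees, wood and periderm each transcribe genes of their own, and soil microbes and fungal partners change that pattern further. In RNA from a whole organ, fewer cells of a type and less RNA per cell cannot be told apart. The deposited table pairs no ID with a gene name, so neither root markers nor pathways could be looked up, and no function or sequence is given for any of the 140 genes. A pair of genes is named by ID, and the others are given by rank and by ID prefix, which is the start of the ID up to the letter G. Genes with near-identical copies may share reads, since the handling of reads that map to several genes is not stated.

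Together the 140 genes held 2.69%, 2.62% and 2.56% of the total FPKM of r_3m replicates 1, 2 and 3, against 0.0411%, 0.0412% and 0.0423% in r_1m replicates 1, 2 and 3. Their summed level was 23553, 22960 and 22793 FPKM in the r_3m libraries and 378, 378 and 388 FPKM in the r_1m libraries. The r_3m libraries therefore lay close together in the sum, and so did the r_1m libraries. The median gene of the set had a group mean of 71.6 FPKM in r_3m and 0.47 FPKM in r_1m. Group means ran from 15.3 to 1612 FPKM in r_3m and from 0 to 65.4 FPKM in r_1m. The d values ran from 4.02 to 10.07, with a median of 5.05. Every r_3m value lay above every r_1m value for each of the 140 genes. Over all genes tested this was so for 37.2%; since the rule used this contrast, nothing is read from the count.

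**Figure D1:**
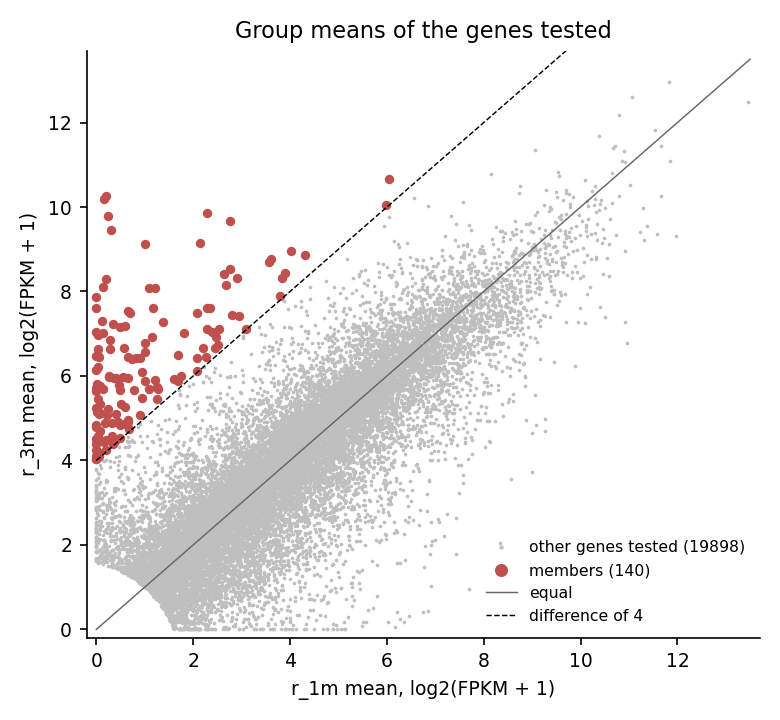
Mean log2(FPKM + 1) in r_3m (vertical) against r_1m (horizontal) for the 20038 genes tested, each point 1 gene. The 140 chosen genes lie above the dashed line of a difference of 4, most of them at the left edge, and a few reach far to the right, up to an r_1m mean of 65.4 FPKM.

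By r_3m mean, 8 of the 140 were among the 100 highest genes, 22 among the 500 highest and 100 among the 5000 highest. By r_1m mean, 0 of the 140 were among the 1000 highest and 2 among the 5000 highest. The median rank among all genes listed was 2762.5 in r_3m and 21460.5 in r_1m. By level in r_3m, 48 had a mean of 15 to under 50 FPKM, 37 of 50 to under 100, 45 of 100 to under 500 and 10 of 500 FPKM or more. Those 10 genes held 41.8%, 38.8% and 42.8% of the summed FPKM of the set in r_3m replicates 1, 2 and 3, and 37.5%, 37.7% and 36.7% in r_1m replicates 1, 2 and 3.

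The working description of these genes as near-switched on held for only part of them. In r_1m, 71 genes (50.7%) had a mean under 0.5 FPKM, 20 had 0.5 to under 1, 32 had 1 to under 5 and 17 had at least 5 FPKM. So 49 of the 140 (35.0%) had at least 1 FPKM in r_1m, and their median r_1m mean was 3.85 FPKM. Detection in r_1m was also graded: 98 genes were above 0 in all 3 r_1m libraries, 15 in 2, 11 in 1, and 16 were listed at 0 in all 3. In r_3m none of the 140 was listed at 0 in any library, and the lowest single value was 8.81 FPKM.

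Where r_1m was above 0 in every library, the ratio of the group means can be read without a pseudocount. Over those 98 genes the ratio, r_3m over r_1m, ran from 17 to 5056 with a median of 69.6. Over the 17 genes with at least 5 FPKM in r_1m it ran from 17 to 140 with a median of 29.1, and over the 32 genes of 1 to under 5 FPKM from 21.0 to 242 with a median of 39.1. The highest ratios belonged to genes with r_1m means under 0.5 FPKM, where a ratio is least precise. The rule added 1 to each mean, so it asked a higher ratio of genes with a lower r_1m mean. The rise of the ratio toward low r_1m levels is thus partly built in, and nothing is read from it.

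**Figure D2:**
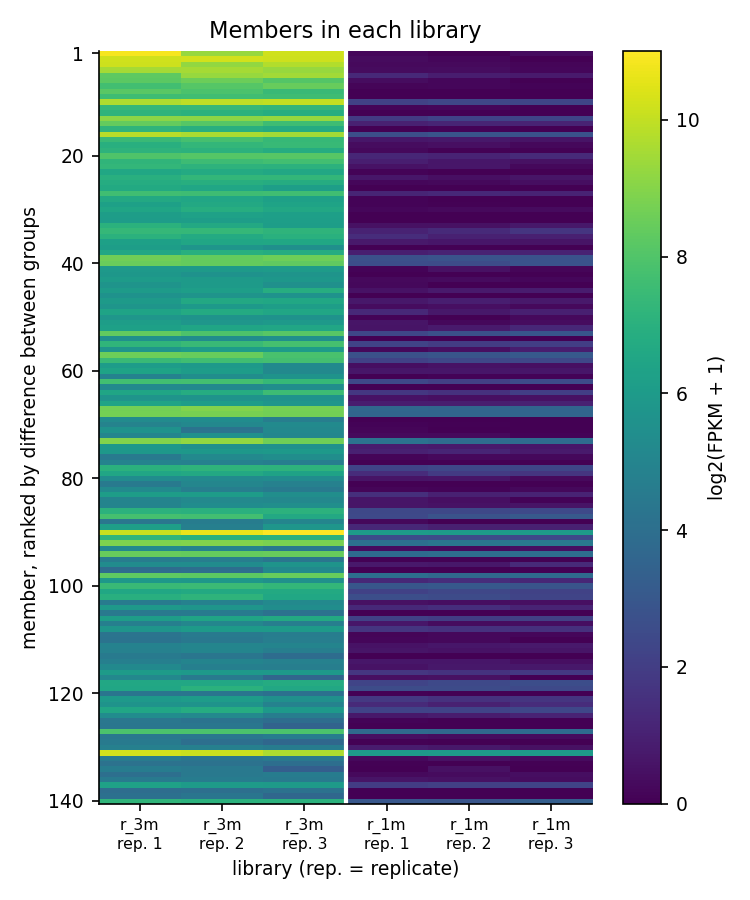
log2(FPKM + 1) of the 140 genes (rows, ranked by d) in the 3 r_3m and 3 r_1m libraries (columns). The r_3m columns are bright throughout, the r_1m columns are dark for most rows, and single rows stay lit in r_1m, such as that of the gene with 65.4 FPKM there.

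The gene of the set with the highest r_3m mean, Cm02G01035.gene, had 1107, 1668 and 2060.0 FPKM in r_3m replicates 1, 2 and 3, against 66.2, 64.7 and 65.2 FPKM in r_1m replicates 1, 2 and 3. The r_3m libraries spread widely, and the r_1m libraries differed by little. Its mean was 1612 ± 479 FPKM in r_3m and 65.4 ± 0.763 FPKM in r_1m (SD, n = 3 each), a ratio of 24.7 and a d of 4.60. This gene also had the highest r_1m mean of the 140, at rank 2919 of all genes listed; in r_3m it stood at rank 19. It was thus well expressed in both groups, and by d only rank 90 of the 140.

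Cm08G00245.gene had the highest r_3m mean among the 16 genes listed at 0 in every r_1m library. It had 294, 234.6 and 173 FPKM in r_3m replicates 1, 2 and 3, against 0, 0 and 0 FPKM in the r_1m libraries. Replicate 1 was highest and replicate 3 lowest in r_3m, and the groups stood far apart. Its r_3m mean was 234 ± 60.7 FPKM (SD, n = 3), which put it at rank 26 of the 140. Its d of 7.88 depends on the pseudocount and was 11.19 at a pseudocount of 0.1.

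Next among the genes listed at 0 in r_1m, a Cm01 gene had 192, 196 and 195 FPKM in r_3m replicates 1, 2 and 3, nearly the same value in each library. A Cm04 gene had 142, 131.7 and 115 FPKM and a Cm10 gene 101, 89.9 and 70.1 FPKM in the same libraries, with replicate 1 highest and replicate 3 lowest in both. The median r_3m mean of the 16 genes was 32.1 FPKM, against 96.5 FPKM for the 98 genes above 0 in every r_1m library. The rule asks a mean of only 15 FPKM in r_3m of a gene at 0 in r_1m, and more of a gene with r_1m reads.

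Among the 10 genes with the highest r_3m mean, levels in r_1m lay in 3 ranges. The highest in r_3m and the fourth, a Cm12 gene, had over 60 FPKM in r_1m. The Cm12 gene had 1219, 1129.8 and 817 FPKM in r_3m replicates 1, 2 and 3 and 61.7, 62.5 and 62.1 FPKM in the r_1m libraries. With a ratio of 17 it had the lowest ratio of all members above 0 in every r_1m library, and its d was 4.07.

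The fifth, seventh and ninth of the 10, from prefixes Cm09, Cm08 and Cm09, had a few FPKM in r_1m. The fifth had 819.5, 965 and 1009.6 FPKM in the r_3m libraries and 3.5, 4.15 and 3.91 FPKM in the r_1m libraries. The seventh had 905, 792 and 725 FPKM in r_3m and 5.2, 6.24 and 5.84 FPKM in r_1m. In both, the spread within a group was small beside the distance between groups. The ninth had 551, 542 and 607 FPKM in r_3m and 2.75, 3.62 and 3.90 FPKM in r_1m.

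The other 5 of the 10 had r_1m means under 1 FPKM. The second, a Cm00 gene and the gene with the largest d of the set (10.07), had 1859, 637 and 1169.6 FPKM in r_3m replicates 1, 2 and 3 and 0.13, 0 and 0.29 FPKM in r_1m. The third, a Cm01 gene, had 1172, 1212 and 1141 FPKM in r_3m and 0.24, 0.13 and 0 FPKM in r_1m. These are alike in mean and d and unlike in spread: the r_3m coefficient of variation (CV, the SD as a percentage of the mean) was 50.1% for the Cm00 gene and 3.03% for the Cm01 gene.

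The eighth of the 10, a Cm04 gene, had 732, 736 and 637 FPKM in the r_3m libraries and 0.26, 0.30 and 0.15 FPKM in the r_1m libraries. The sixth, another Cm00 gene, had 1163, 599.6 and 866 FPKM in r_3m and 0.20, 0.21 and 0.11 FPKM in r_1m. The tenth, a Cm09 gene, had 310.4, 634 and 725 FPKM in r_3m and 1.42, 0.82 and 0.74 FPKM in r_1m. The sixth was highest in r_3m replicate 1 and the tenth lowest there, so no single r_3m library was high for all of the leading genes.

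**Figure D3:**
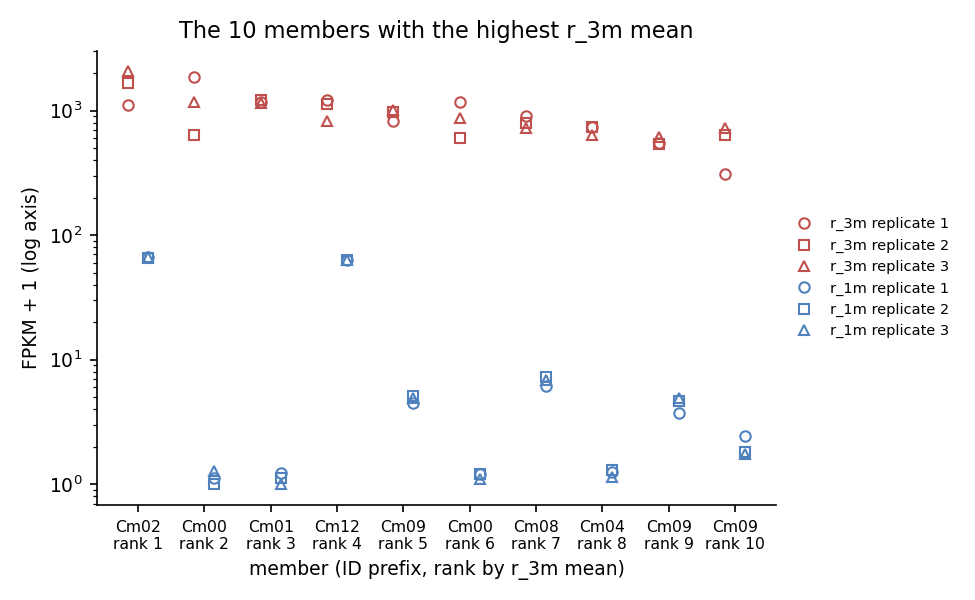
FPKM + 1 on a log axis for the 10 genes of the set with the highest r_3m mean, with r_3m libraries left (red) and r_1m libraries right (blue) of each position; symbols mark the replicates. All r_3m points lie at or above 310.4 FPKM, while r_1m points range from 0 FPKM to 66.2 FPKM; the genes of prefix Cm00 and the last Cm09 gene show the widest r_3m spread.

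After the 2 genes over 60 FPKM, the highest r_1m means in the set belonged to 2 Cm10 genes and a Cm06 gene. The Cm10 genes had 471, 490.2 and 439.8 FPKM and 498, 598 and 395.5 FPKM in r_3m, against 16.2, 19.3 and 20.9 FPKM and 17.4, 14.3 and 13.7 FPKM in r_1m. The Cm06 gene had 351, 335 and 352 FPKM in r_3m and 13.2, 14.2 and 14.3 FPKM in r_1m. Each of these 3 had a ratio between 24.9 and 32.9.

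The 5 genes just inside the limit of the rule had d of 4.02, 4.02, 4.02, 4.03 and 4.04, and the 5 just outside had d of 4.00 (unrounded, just under 4), 4.00, 3.99, 3.98 and 3.96. Just inside, a Cm10 gene had group means of 136 FPKM in r_3m and 7.49 FPKM in r_1m, and a Cm04 gene 15.3 and 0 FPKM. Just outside, a Cm06 gene had 73.5 FPKM in r_3m and 3.66 FPKM in r_1m, and a Cm09 gene 14.97 and 0 FPKM. Both sides thus held genes of either kind, absent or clearly present in r_1m. With a limit of 3 the set would hold 303 genes and with a limit of 5 it would hold 71.

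The r_3m libraries did not rank alike across the set. The rule used the mean of these libraries and not their order. The order is still not independent of the choice, since a high value in any single library helps a gene pass. Replicate 1 held the highest r_3m value for 55 of the 140 genes (39.3%), replicate 2 for 47 (33.6%) and replicate 3 for 38 (27.1%). Over all genes tested the shares were 31.4%, 29.9% and 38.7% in the same order of replicates. Replicate 3 held the lowest value for 66 genes (47.1%) and replicate 2 for 22 (15.7%), against 36.3% and 24.6% of all genes tested. Among the 9202 other genes in the same range of r_3m means, replicates 1, 2 and 3 were highest in 33.9%, 27.7% and 38.5%, and replicate 3 was lowest in 40.6% and replicate 2 in 23.3%. With median-of-ratios scaling, the rule chose 139 genes. Replicates 1, 2 and 3 were highest for 68, 35 and 36 of them, so replicates 2 and 3 came out nearly equal. The shares over all genes tested were not computed with that scaling. These counts therefore cannot be set against the shares above, which are for unscaled FPKM. The order 1, 2, 3 from high to low was the most frequent, with 40 genes (28.6%, against 21.3% of all genes tested). The order 3, 1, 2 was the least frequent, with 7 genes (5.00%, against 14.6%). Genes are not independent replicates, so these shares describe 3 libraries and were not tested. Replicate 1 also had the lowest depth of the 3, at 64.0%; the part of depth in the order was not tested.

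**Figure D4:**
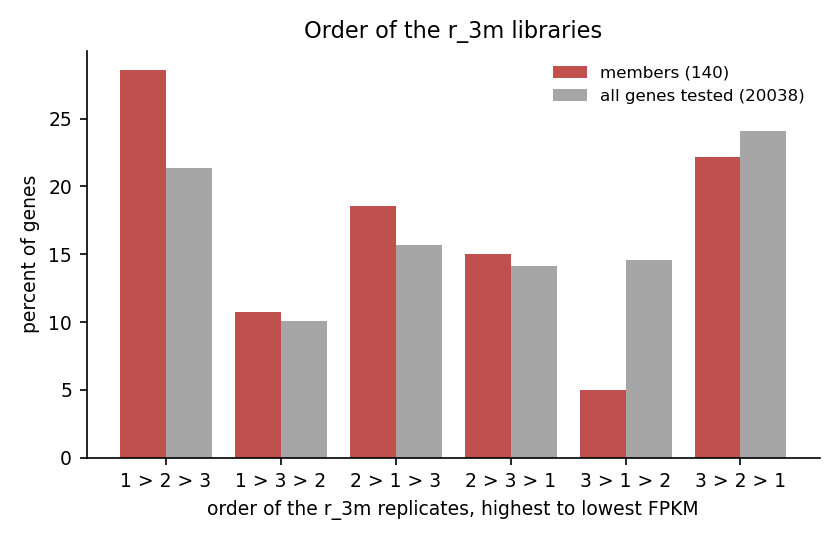
Percent of genes (vertical) with each order of the 3 r_3m replicates from highest to lowest FPKM, for the 140 genes of the set (red) and all 20038 genes tested (grey). The order 1, 2, 3 holds 28.6% of the set and 21.3% of all genes; the order 3, 1, 2 holds 5.00% and 14.6%.

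Members also differed from each other in how evenly the r_3m libraries expressed them. The median r_3m CV was 13.0% over the 140 genes, against 9.77% over the 9202 other genes tested whose r_3m mean lay in the same range. It was above that of the other genes at each level: 16.1% against 10.4% from 15 to under 50 FPKM, 12.8% against 8.85% from 50 to under 100, 10.04% against 8.66% from 100 to under 500, and 15.6% against 8.77% from 500 FPKM on. A CV of at least 20% was found in 45 of the 140 genes (32.1%) and in 17.5% of the other genes. A wider spread was not limited to r_3m. The 49 genes of the set with at least 1 FPKM in r_1m had a median r_1m CV of 11.5%. It was 6.01% over 16209 other genes with r_1m means in the same range, not matched by level within it. The median r_3m CV of the same 49 genes was 11.4%. The CV uses the same r_3m values whose mean the rule used, and a single high r_3m library helps a gene pass. A wider r_3m spread in the set may thus be partly built in. Since 3 values give a CV of low precision and genes of 1 library vary together, these differences were not tested.

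The evenest gene was a Cm02 gene with 236, 237 and 234.1 FPKM in r_3m replicates 1, 2 and 3 and 12.9, 12.1 and 13.6 FPKM in r_1m, with an r_3m CV of 0.667%. The least even was a Cm08 gene with 13.8, 14.9 and 36.5 FPKM in r_3m and 0 FPKM in each r_1m library, with a CV of 58.9%. Here a single r_3m library, replicate 3, lay well above the others and raised the mean. A Cm03 gene with 34.6, 22.1 and 11.5 FPKM in r_3m and 0.37, 0.39 and 0 FPKM in r_1m was highest in replicate 1 and lowest in replicate 3.

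By ID number, which the rule did not use, most of these genes had no close neighbour within the set. In 112 of the 140 (80%) no other gene of the set lay within 10 IDs. The other 28 formed 12 groups of 2 or 3 genes. Of the 28, 10 had a gene of the set at the very next ID, in 2 runs of 3 and 2 runs of 2. At a distance of exactly 2 IDs the number was 9, at 3 it was 0, at 5 it was 4 and at 10 it was 0. No such counts were made for other sets of 140 genes, so they do not tell if this set is more scattered or more clustered than others. Reading ID distance as nearness of genes assumes that IDs follow gene order, which was not checked. By prefix, 1.93% of the tested Cm00 genes were in the set (6 of 311), 1.30% of Cm10 genes (17 of 1304) and between 0.414% and 0.882% of the genes of each other prefix.

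The Cm00 prefix held 2 of the 10 genes with the highest r_3m mean, and they lay close together in ID number with a weaker gene of the set. Within 5 IDs the 3 genes had 47.4, 17.3 and 34.7 FPKM, 1163, 599.6 and 866 FPKM, and 1859, 637 and 1169.6 FPKM in r_3m replicates 1, 2 and 3. Their r_1m values were at most 0.12, 0.21 and 0.29 FPKM. For all 3, replicate 1 was the highest library and replicate 2 the lowest. The gene between the last 2 of them, which missed the limit, had 12.7, 4.09 and 8.04 FPKM in r_3m and 0 FPKM in each r_1m library, in the same order of replicates. Replicate 1 exceeded replicate 2 by 2.75, 1.94 and 2.92 times in the 3 genes of the set and by 3.11 times in that gene. Not every gene there followed. The gene between the first 2 genes of the group was listed at 0 FPKM in every library. The gene at the ID after the group had 1.76, 0.84 and 5.55 FPKM in r_3m, with replicate 3 highest. Shared reads among these genes were not tested.

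This order of r_3m libraries, 1, 3, 2, was found in 4 of the 6 Cm00 genes of the set and in 11 of the 134 genes of other prefixes, against 10.1% of all genes tested. Of these 4 genes, 3 are the group just described. The fourth Cm00 gene with it lay far from the group in ID number and had 72.3, 25.7 and 53.9 FPKM in r_3m and 1.37, 0.96 and 1.03 FPKM in r_1m. A CV of at least 30% was found in 4 of the 6 Cm00 genes, 3 of them in that group, and in 11 of the 134 others. Among the 9202 other genes in the same range of r_3m means, 6.72% had such a CV. The share was not computed for Cm00 genes outside the set. The other 2 Cm00 genes, with 20.6, 22.5 and 16.5 FPKM and 19.9, 17.1 and 14.2 FPKM in r_3m, had another order and a smaller spread. Without the Cm00 genes, an alternative added after seeing the data, the median r_3m CV of the set was 12.6%.

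The 2 runs of 3 consecutive IDs had no gene above 100 FPKM in r_3m mean. The Cm05 run had 88.1, 114 and 94.7 FPKM, then 75.4, 89.9 and 92.7 FPKM, then 52.7, 67.6 and 64.1 FPKM in r_3m replicates 1, 2 and 3. Its r_1m means were 0.21, 0.57 and 0.46 FPKM. All 3 genes were lowest in replicate 1. The Cm08 run had 21.7, 18.99 and 13.7 FPKM, then 69.0, 66.1 and 42.6 FPKM, then 51.6, 63.0 and 44.4 FPKM in r_3m, with r_1m means of 0, 1.32 and 0.0567 FPKM. All 3 genes of this run were lowest in replicate 3.

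Of the pairs of consecutive IDs, that of prefix Cm10 had 29.8, 27.8 and 24.9 FPKM and 21.3, 31.7 and 27.6 FPKM in r_3m, and 0 FPKM in every r_1m library for both genes. The Cm11 pair had 50.5, 49.4 and 48.4 FPKM and 134, 126 and 133 FPKM in r_3m, against r_1m means of 0.403 and 4.26 FPKM. A Cm10 pair 5 IDs apart had 498, 598 and 395.5 FPKM and 122.7, 142 and 93.8 FPKM in r_3m, with replicate 2 highest and replicate 3 lowest in both and r_3m CVs of 20.3% and 20.4%. Its r_1m means were 15.1 and 4.54 FPKM. The genes of this last pair differed several times in level and shared the order of libraries. Those of the consecutive Cm10 pair and of the Cm11 pair did not share it, and pairs of other prefixes went either way.

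Genes next to the set in ID order were not chosen by the rule, so the groups can be compared there. Of 265 genes that lay 1 ID from a gene of the set without belonging to it, 171 were tested. Of these, 83 (48.5%) were higher and 44 (25.7%) lower in r_3m (limma, Benjamini-Hochberg adjusted p below 0.05); over all genes tested, 33.9% were higher and 33.6% lower. With a change of at least 2-fold in FPKM + 1 added to the same call, 54 (31.6%) were higher and 24 (14.0%) lower. Over all genes tested, these shares were 11.9% and 16.0%. Over the tested genes outside the set they were 11.3% and 16.1%, and 33.4% and 33.8% without the 2-fold limit. The median log2 fold change in FPKM + 1 of the neighbours at 1 ID was 0.42, against 0.01 over all 19898 tested genes outside the set. Farther off, the share called 2-fold higher was 19.5% for a distance of 2, then 15.8% for 3, 12.7% for 5 and 8.05% for 10. It thus lay above that of all genes for the nearest IDs and close to it or under it from 5 IDs on. With the r_1m libraries averaged and counted as 1 sample, an alternative added after seeing the data, 3408 of all genes tested were called higher and 3634 lower, and 64 and 30 of the neighbours at 1 ID. The spread then comes from the 3 r_3m libraries alone, and the averaged sample is assumed to vary like them. The shares were not tested against each other, and a likeness of fold changes between consecutive IDs over the whole table was known when they were computed.

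**Figure D5:**
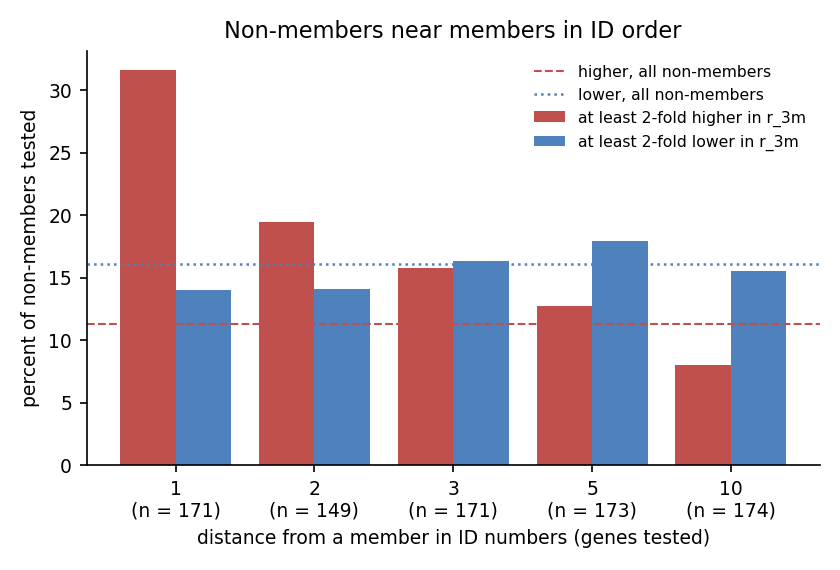
Percent of tested genes outside the set (vertical) called at least 2-fold higher (red) or lower (blue) in r_3m, by distance in ID numbers from a gene of the set (horizontal); the dashed and dotted lines give the same over all 19898 genes outside the set, 11.3% and 16.1%. The red bars go from 31.6% at 1 ID to 8.05% at 10 IDs, while the blue bars stay between 14.0% and 17.9%. The 2-fold limit applies to FPKM + 1.

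The leading genes among these neighbours came close to the limit of the rule. None could reach it, since a gene at the limit belongs to the set. The neighbours given here were picked for the largest changes in the contrast that the fit measures. The neighbour with the largest increase, a Cm01 gene, had 21.4, 23.6 and 22.4 FPKM in r_3m replicates 1, 2 and 3 and 0.33, 1.03 and 0.37 FPKM in r_1m, so that log2(FPKM + 1) was 3.92 ± 0.18 (SE) higher in r_3m (limma, adjusted p = 2.80e-06). A Cm05 neighbour had 122, 132.1 and 103 FPKM in r_3m and 7.80, 6.59 and 7.14 FPKM in r_1m (3.87 ± 0.11 SE higher on the same scale; limma, adjusted p = 4.48e-07). Neighbours could also move the other way. The neighbour with the largest decrease, a Cm10 gene, had 0.95, 0.92 and 0.81 FPKM in r_3m and 16.7, 17.8 and 17.8 FPKM in r_1m, a difference of -3.28 ± 0.09 (SE) on the same scale (limma, adjusted p = 4.38e-07). These p-values measure only the spread between the libraries, which may be technical.

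The order of the r_3m libraries was also compared between the set and its neighbours. In 172 pairs of a gene of the set and a tested gene outside it at 1 ID, the same r_3m replicate was highest in 59 (34.3%) and the same was lowest in 63 (36.6%). At 10 IDs, over 174 pairs, the same replicate was highest in 65 (37.4%). Among the 84 pairs at 1 ID whose neighbour was called higher, 25 (29.8%) shared the highest replicate. For neighbours called higher at distances of 2, 3, 5 and 10, this share was 39.1%, 44.1%, 46.8% and 37.0%, so it was lowest for the nearest IDs. These shares were not tested.

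The opposite difference, at least 16-fold lower in r_3m on the same scale, was found in 88 genes, with median group means of 0.782 FPKM in r_3m and 47.3 FPKM in r_1m. At least 100 FPKM in the group where the gene was high was reached by 55 of the 140 genes higher in r_3m and by 29 of the 88 genes lower in r_3m. Listed at 0 in all libraries of the other group were 16 of the 140 and 14 of the 88. Both sets held 6 pairs of consecutive IDs.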

How the data were processed

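The authors deposited a single table of FPKM values, with 2 decimals, for 33991 gene IDs. FastQC 0.11.9, Trimmomatic and STAR 2.7.10b are the tools listed, per the submitters' processing notes; counter, genome build, annotation and handling of multi-mapping reads were not given in the sources used here. The 6 columns matching the titles were used, and 207 other columns of values were not. Replicates were numbered in record order and pair nothing.

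Genes, lists and alternatives were chosen with earlier results of these data known. FPKM are not counts, so log2(FPKM + 1) was fitted with limma 3.58.1 in R 4.3.3 (mean-variance trend, two-sided) on the 20038 genes averaging 1 FPKM or more; calls have a Benjamini-Hochberg adjusted p below 0.05 over these genes. Its calls are given for genes outside the set and, as background, for all genes tested, the 140 included; the fit was tested on simulated data. Relative depth was taken from the peak of low-value ratios between libraries. The 2 printed IDs are the gene with the highest r_3m mean and the highest listed at 0 in r_1m; the other genes given were the leading ones in either group, at the limit or in ID groups, besides the evenest, the least even and the neighbours, chosen after their values were seen. Lists by product name were not run. Alternatives are listed in the closing section.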

Additional observations from a re-analysis of the deposited data

How the results depend on the processing

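The set depended most on the pseudocount. At 0.1 it held 340 genes, all 140 among them, of which 67 were listed at 0 in r_1m and 120, 116 and 104 were highest in r_3m replicates 1, 2 and 3, with 28 pairs of consecutive IDs. A limit of 3 gave 303 genes and a limit of 5 gave 71. The other scalings and filters gave at most 149 genes, and group medians gave 142, of which 137 were in the set. Leaving out 1 library gave 136 to 143 genes; the number highest in replicate 1 then ran from 54 to 76, in replicate 2 from 46 to 81 and in replicate 3 from 38 to 62, since 2 libraries share all genes when an r_3m library is left out. Neighbours called at 1 ID ran from 79 to 90 higher and from 38 to 47 lower without 1 library; at 2 to 3 IDs, 115 were higher and 84 lower of 301 tested. An alternative added after seeing the data averaged r_1m into 1 sample, so that only r_3m supplied the spread; it moved the calls over all genes to 3408 higher and 3634 lower, and those of neighbours to 64 and 30. The near-even balance over all genes, 6787 higher and 6732 lower, turned to more lower calls there, without a minimum mean (6739 and 7351), with median-of-ratios scaling (6530 and 6921), at an adjusted p below 0.01 (5330 and 5452) and without r_3m replicate 2 (6161 and 6439) or 3 (7106 and 7355). Higher calls led by more after rescaling to a fixed total (7446 higher and 6351 lower) and after quantile normalization (7066 and 6552). They also did at a minimum mean of 5 FPKM (5420 and 4920), so the direction of the balance depended on the setting. No paired analysis was possible because no replicate number in the labels is shared by the groups. Depth limits the r_1m values near 0, where a single read decides whether a gene is listed at 0.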
